A study of Homo sapiens with 6 samples.

Results

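The genes described here are 10 members of the Notch pathway, namely the receptors NOTCH1, NOTCH2, NOTCH3 and NOTCH4, the ligands DLL1 and JAG1, the DNA-binding factor RBPJ and the target genes HES1, HEY1 and DTX1. They were chosen by name, through the RefSeq transcript that the array design gives for each probe, and are 10 of the 19740 genes that could be named on the array. RNA of 6 samples of SU-DHL-2 cells, an established human diffuse large B-cell lymphoma (DLBCL) line, was hybridised to 1-colour Agilent arrays. In 3 samples the cells had been cultured with IL-17A, a cytokine made by Th17 cells, at 200 pg/ml for 72 h, and in the other 3, used as controls, the cells were kept for the same time without it. No other treatment separated the groups, all samples came from 1 cell line at 1 dose and 1 time, and the labels do not say that the cultures were started separately, so the p-values measure only the spread between these samples, which may be technical.

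Notch receptors are membrane proteins that are activated by Delta-like and Jagged ligands carried by neighbouring cells. Binding exposes the receptor to an ADAM protease and then to gamma-secretase, which frees the intracellular domain. That domain enters the nucleus, joins RBPJ and a Mastermind protein on DNA, and switches on HES and HEY repressors and DTX1. In the B lineage NOTCH2 is required for marginal zone B cells, and NOTCH1 and NOTCH2 carry activating mutations in subsets of DLBCL.

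On these arrays the changes of the members were small in size, but not smaller than those of other probes. The median size of the log2 fold change was 0.14 over the tested member probes and 0.12 over all tested probes. Of the 12 member probes, 11 were measured above background and tested, and they covered 9 of the 10 members. In limma, none reached a fold change of 1.5 with an unadjusted p under 0.05, against 522 of 23945 tested probes, or 2.18%. For 11 probes a count of 0 is close to that share, so it does not set the members apart. Below 1.5-fold, the ligand DLL1 read 1.30-fold higher in the IL-17A samples than in the controls, and the receptor NOTCH4 1.19-fold lower. These were the only members with a Benjamini-Hochberg adjusted p under 0.05 in limma. Neither kept it when any 1 of the 6 arrays was left out. IL-17A replicates 2 and 3 were also scanned at another time than the controls. At the weaker level of an unadjusted p under 0.05, the NOTCH2 and RBPJ probes were slightly higher and the NOTCH3 probe slightly lower. HES1, a classical Notch target, was not well above background on any of the 6 arrays.

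The promoters of 7 of the 10 members were found among RefSeq promoters, each taken from 250 bases before to 50 bases after a transcription start (build GRCh38.p14). They were searched for TGGGAA, the core of the site that RBPJ binds, on both strands, and for the longer GTGGGAA, which contains it. The core occurred in 24% of all 35116 promoters and the longer form in 6.25%, so a match is common by itself. Among the matched members, HES1 and RBPJ held both forms. Outside the members, HEY2 is shown as an example of a further HES/HEY-family target with a pair of sites. The promoters of HES5 and HEYL, which are not shown, also held 2 core matches each. The sequences are given to show where the matches lie in the genes that encode the factor and its targets. Capitals mark TGGGAA, or TTCCCA where the match is on the opposite strand.
HES1 promoter, chr3:194135898-194136197, plus strand: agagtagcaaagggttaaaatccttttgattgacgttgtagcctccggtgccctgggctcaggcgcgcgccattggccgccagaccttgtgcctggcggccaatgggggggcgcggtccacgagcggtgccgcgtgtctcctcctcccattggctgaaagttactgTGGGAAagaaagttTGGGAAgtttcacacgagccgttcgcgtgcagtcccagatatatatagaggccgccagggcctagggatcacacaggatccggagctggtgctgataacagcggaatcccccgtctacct
RBPJ promoter, chr4:26319496-26319795, plus strand: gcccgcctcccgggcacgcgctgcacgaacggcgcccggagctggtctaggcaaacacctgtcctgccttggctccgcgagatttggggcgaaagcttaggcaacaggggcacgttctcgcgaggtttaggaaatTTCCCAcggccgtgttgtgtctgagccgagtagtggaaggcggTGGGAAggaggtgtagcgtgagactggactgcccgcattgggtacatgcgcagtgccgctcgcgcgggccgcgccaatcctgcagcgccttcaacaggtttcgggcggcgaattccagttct
HEY2 promoter, chr6:125749382-125749681, plus strand: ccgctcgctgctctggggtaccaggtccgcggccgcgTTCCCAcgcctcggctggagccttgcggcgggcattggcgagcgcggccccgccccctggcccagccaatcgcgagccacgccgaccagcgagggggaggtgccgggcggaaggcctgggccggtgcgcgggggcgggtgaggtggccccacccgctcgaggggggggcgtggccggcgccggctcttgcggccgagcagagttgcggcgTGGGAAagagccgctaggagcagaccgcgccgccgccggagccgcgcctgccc
The HES1 matches began 84 and 70 bases before the start and had the same orientation. The RBPJ matches began 115 and 72 bases before the start, and the HEY2 matches 213 and 3 bases before it, in both genes on opposite strands. RBPJ has further listed starts, and the windows at those held no match. A match describes the letters of the sequence and is not evidence of binding.

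Levels are given as log2 of the quantile-normalized signal, in the order of replicates 1, 2 and 3. NOTCH2, the receptor of marginal zone B cells, was read by a pair of probes. Its brighter probe (A_23_P200792) gave 11.35, 11.37 and 11.35 with IL-17A and 11.13, 11.19 and 11.24 in the controls. All 3 treated samples lay above all 3 controls. The log2 fold change was 0.17 (SE 0.04, n = 3 per group; limma adjusted p = 0.0619), a 1.13-fold difference. The dimmer probe (A_33_P3258824), designed on a shorter NOTCH2 transcript, gave 8.17, 8.17 and 8.13 against 8.05, 7.99 and 8.01. Those groups did not overlap either, and the log2 fold change was 0.14 (SE 0.04; limma adjusted p = 0.0769). The NOTCH2NL genes are near-identical copies of the first part of NOTCH2, so the gene behind the dimmer probe is uncertain. Its unadjusted p was no longer under 0.05 without normalization between arrays (log2 fold change 0.17) or without control replicate 2 (0.13).

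NOTCH1, the receptor best known from T-cell leukaemia, also had a pair of probes. One was printed on 10 spots of each array and the other on 1. The 10-spot probe (A_23_P60387) gave 4.99, 4.84 and 4.90 with IL-17A and 4.91, 4.87 and 4.80 without. The groups overlapped, and the log2 fold change was 0.05 with a 95% confidence interval from -0.09 to 0.19 (limma adjusted p = 0.613). Across its 10 spots the coefficient of variation of the intensity was between 5.10% and 8.97% on each array. The single-spot probe (A_33_P3370424) gave 5.99, 5.82 and 6.18 against 5.35, 6.36 and 6.21. Here control replicate 1 lay far below the other controls, and the log2 fold change was 0.02 with an interval from -0.68 to 0.72 (limma adjusted p = 0.964). Without control replicate 1 it was -0.29 (SE 0.12), so the single-spot probe left the direction of NOTCH1 unresolved, while the interval of the 10-spot probe excluded a change of 1.5-fold.

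**Figure D1:**
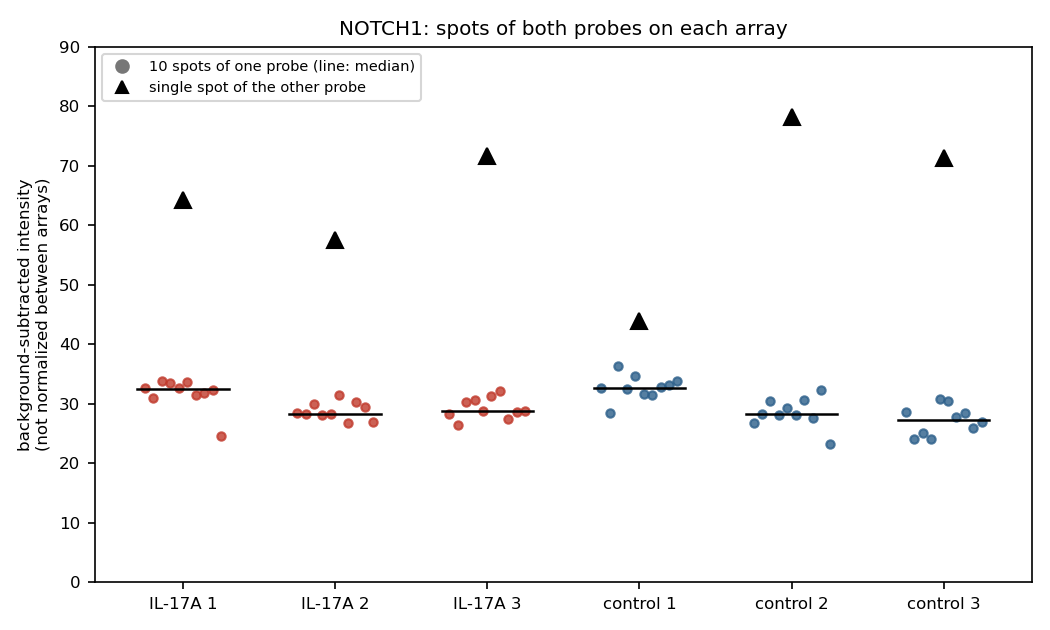
NOTCH1 signal on each of the 6 arrays, as background-subtracted intensity before normalization. Small points are the 10 spots of 1 probe with a line at their median, and triangles the single spot of the other. The 10 spots kept close together, with medians between 27.4 and 32.7, while the single spot ranged from 44.0 to 78.3, with its lowest value in control replicate 1.

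NOTCH3 and NOTCH4 ran opposite to NOTCH2. The NOTCH3 probe (A_33_P3313055) read 6.73, 6.76 and 6.75 with IL-17A and 6.91, 6.87 and 6.90 in the controls. Every treated sample was below every control, by a log2 fold change of -0.14 (SE 0.03; limma adjusted p = 0.0595). Without normalization between arrays this was -0.11 (SE 0.08) and no longer had an unadjusted p under 0.05. The NOTCH4 probe (A_23_P365614) read 8.15, 8.09 and 8.01 against 8.30, 8.36 and 8.35. These groups were apart as well, and the log2 fold change was -0.25 (SE 0.05, 95% confidence interval from -0.37 to -0.13; limma adjusted p = 0.045). The adjusted p rose to between 0.0687 and 0.166 when any 1 of the 6 arrays was left out, which also left fewer samples. It was 0.0621 by the methods' t-test and 0.0535 without a filter on detection.

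NOTCH4 is known mainly from endothelial cells, so the markers of that cell type are given beside it. Of 8 endothelial markers on the array, 7 were tested, and 4 were lower and 0 higher at an unadjusted p under 0.05, against 14.8% of all tested genes lower. They were CLDN5 (log2 fold change -0.39, limma adjusted p = 0.114), CDH5 (-0.30, adjusted p = 0.0647), VWF (-0.30, adjusted p = 0.142) and PECAM1 (-0.16, adjusted p = 0.117), so none passed after adjustment. TEK (-0.33), TIE1 (-0.06) and ESAM (0.12) did not pass at either level, and KDR, the main VEGF receptor of endothelium, was not detected on any array. The summed signal of the list was 299 to 321 with IL-17A and 337 to 382 in the controls. The sums of 2 other lists did not overlap between the groups either. The monocyte and macrophage sum was 102 to 112 with IL-17A and 115 to 164 without. Of its 3 tested markers, 0 passed in either direction. The B-cell sum was 59726 to 61415 against 59289 to 59415. Of 12 tested B-cell markers, 5 were higher and 1 lower, while 16.9% of all tested genes were higher and 14.8% lower. The T and NK cell sums overlapped. Of 8 tested markers in that list, 1 was higher and 2 were lower. The higher one was CD2 (0.51, limma adjusted p = 0.054). The lower ones were CD28 (-0.71, limma adjusted p = 0.0327) and CD3E (-0.455, limma adjusted p = 0.0401). All 12 B-cell markers were detected in all 6 samples. The part of these markers in the NOTCH4 result was not tested, and in bulk RNA fewer cells with a transcript cannot be told apart from less of it per cell.

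The opposite movement of the receptors was also computed within each array, a comparison chosen after the values were seen. The log2 difference of NOTCH2 minus NOTCH4 was 3.21, 3.28 and 3.34 with IL-17A and 2.84, 2.83 and 2.89 without. Its mean was larger with IL-17A by 0.42. For NOTCH2 minus NOTCH3 the increase was 0.32. Without normalization between arrays the increases were 0.43 and 0.32. Because each of these probes already separated the groups in opposite directions, the differences had to separate them too, so they are a description of size and no further test. They do not show which receptor moved.

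DLL1, a Delta-like ligand, had the largest fold change of the tested members. Its probe (A_23_P167920) gave 5.54, 5.71 and 5.59 with IL-17A and 5.23, 5.30 and 5.20 in the controls. The treated samples were all above the controls. The log2 fold change was 0.37 (SE 0.06, 95% confidence interval from 0.23 to 0.52; limma adjusted p = 0.0332), or 1.30-fold with an interval from 1.17 to 1.43. Leaving out any 1 array gave 0.33 to 0.41 with adjusted p from 0.0563 to 0.136, and correcting the background with normexp and an offset of 50 reduced the value to 0.12. By the methods' t-test its adjusted p was 0.0513. JAG1, a Jagged ligand, read 4.81, 4.92 and 4.85 (probe A_23_P210763) against 4.83, 4.62 and 4.54. Control replicate 1 lay within the treated range, and the log2 fold change of 0.20 had an unadjusted p above 0.05 (SE 0.08; limma adjusted p = 0.179). Without that control it was 0.28 (SE 0.06; limma adjusted p = 0.104) and had an unadjusted p under 0.05.

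**Figure D2:**
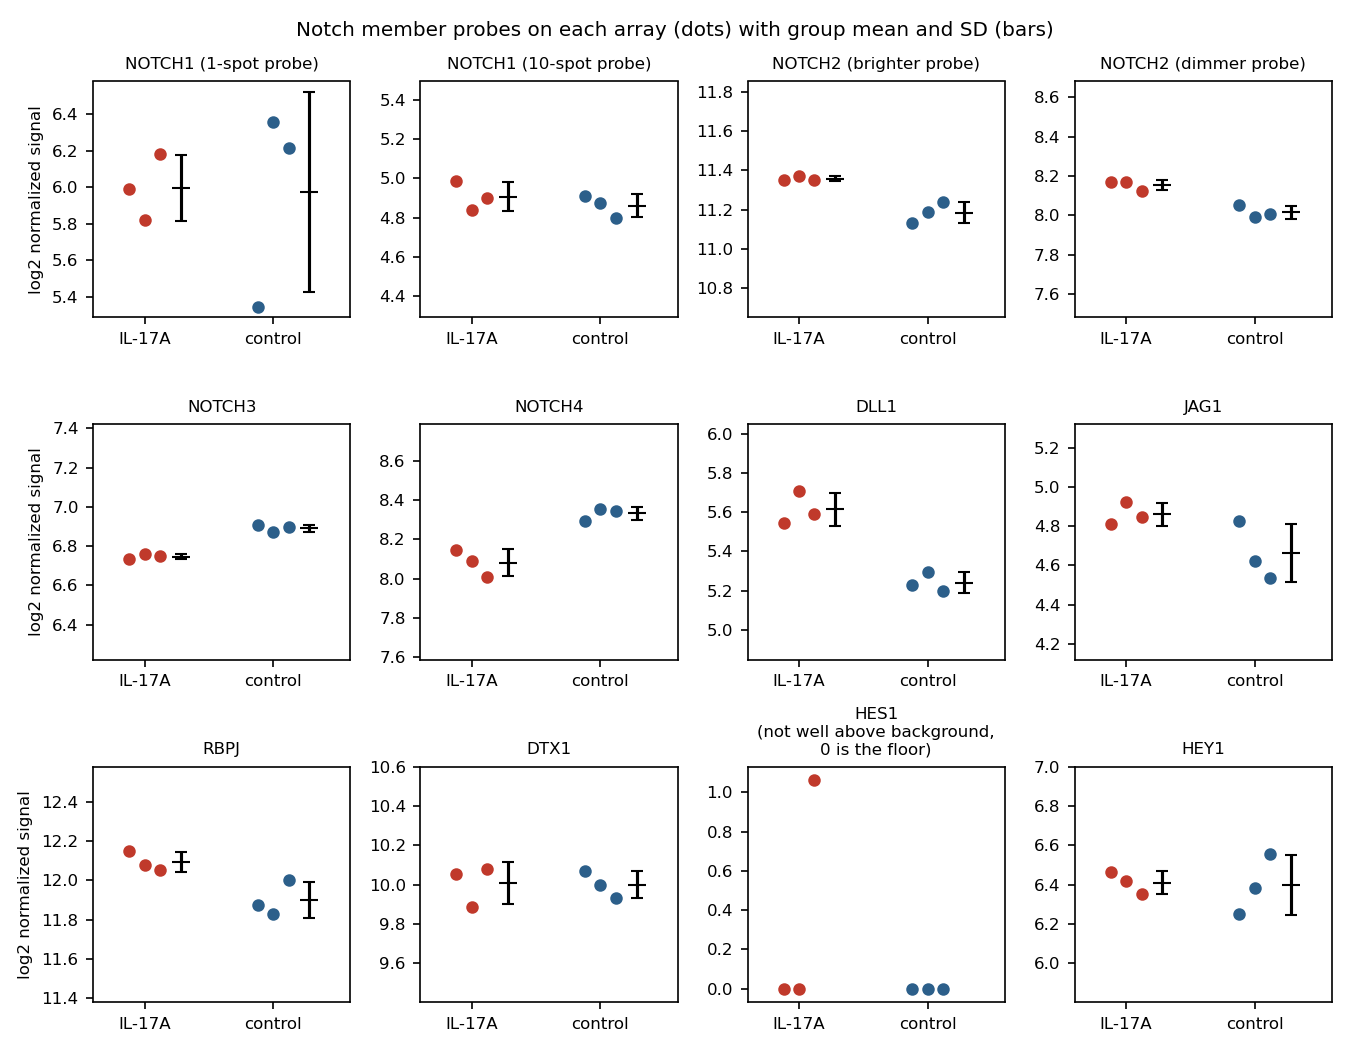
Normalized log2 signal of the 12 member probes on each array. Dots are samples in the order of replicates 1 to 3, bars are the group mean and SD (n = 3), and each vertical axis covers its own range, so heights are not comparable between panels. DLL1, both NOTCH2 probes and RBPJ were higher in all 3 treated samples, NOTCH3 and NOTCH4 were lower in all 3, and HES1 is shown without a mean because it was not well above background.

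RBPJ is the factor through which all 4 receptors act on DNA. The probe for it (A_23_P29994) gave 12.15, 12.08 and 12.05 with IL-17A and 11.87, 11.83 and 12.003 without. The groups did not overlap, although control replicate 3 came close to the treated samples. The log2 fold change was 0.19 (SE 0.06, 95% confidence interval from 0.04 to 0.34; limma adjusted p = 0.0996). It lost an unadjusted p under 0.05 without IL-17A replicate 1 (log2 fold change 0.16), without control replicate 1 (0.18) and without control replicate 2 (0.15), and also without normalization between arrays (0.21) and with the replicate number as a block (0.19).

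Of the 3 targets among the members, DTX1 and HEY1 showed no change beyond the spread between replicates, and HES1 could not be measured. DTX1, an E3 ligase that Notch induces in lymphocytes, read 10.06, 9.89 and 10.08 (probe A_24_P290751) against 10.07, 10.00 and 9.93. The groups overlapped and the log2 fold change was 0.01 with a 95% confidence interval from -0.16 to 0.18 (limma adjusted p = 0.95). HEY1, a repressor of the HES/HEY family, read 6.46, 6.42 and 6.35 (probe A_32_P83845) against 6.25, 6.38 and 6.56. Its controls spanned the treated samples, and the log2 fold change was 0.01 with an interval from -0.20 to 0.23 (limma adjusted p = 0.932). The intervals of both genes left out a change of 1.5-fold in either direction but not smaller ones, and that of HEY1 contained the estimate for RBPJ. The HES1 probe (A_23_P6596) was at the floor of the scale on 5 arrays and reached a log2 signal of 1.06 in IL-17A replicate 3, where it was again not well above background, so it has no fold change.

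**Figure D3:**
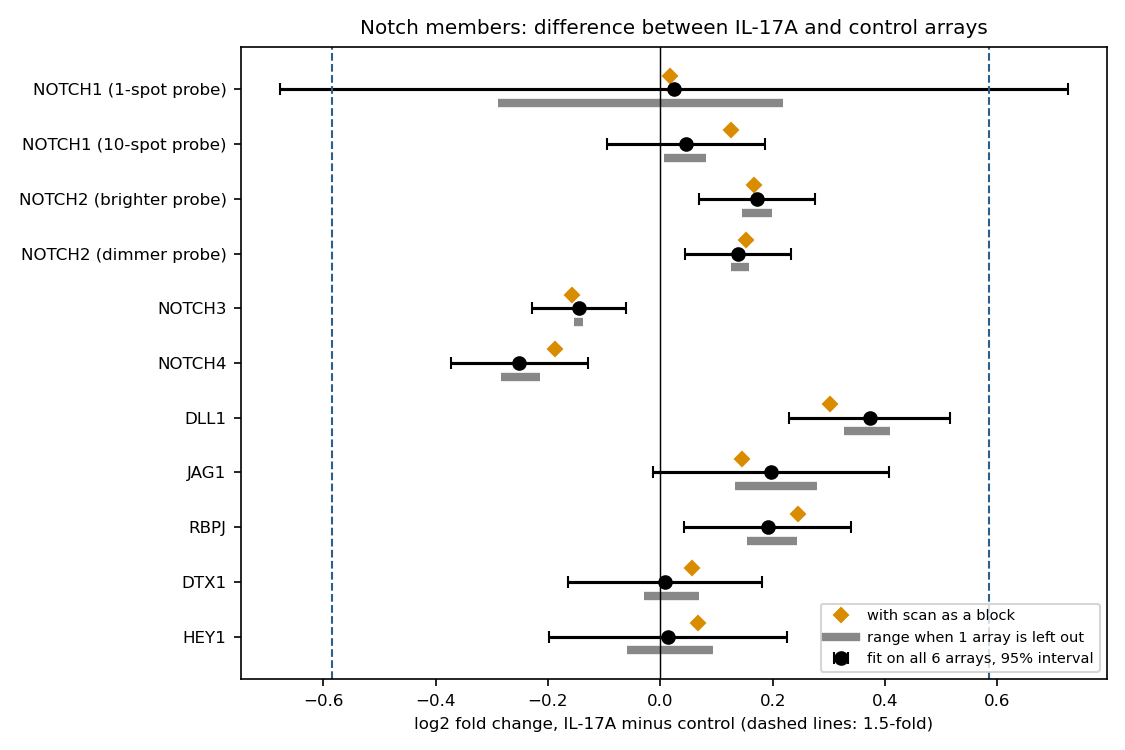
Log2 fold change (IL-17A minus control) of the 11 tested member probes with 95% confidence intervals from limma, n = 3 per group. Diamonds are the estimates with the scan as a block and grey bars the range when 1 array is left out. DLL1 lies highest at 0.37 and NOTCH4 lowest at -0.25, and every estimate on all 6 arrays lies between the dashed lines at 1.5-fold.

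These counts were read against all tested probes. At an unadjusted p under 0.05, 4 member probes were higher and 2 lower, together 54.5% of 11, while 17.1% of all probes were higher and 14.2% lower. An adjusted p under 0.05 was reached by 2 member probes, or 18.2%, against 7.59% of all. Both counts rest on the full set of arrays, since leaving out 1 array gave 0 member probes and between 2 and 983 of all probes. The groups of arrays did not overlap for 6 member probes, or 54.5%, against 39% of all. Because the 2 NOTCH2 probes both count, and because 11 probes are few, these shares are a description only. The median size of the log2 fold change was 0.14 for the member probes and 0.12 for all.

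The arrays had been scanned at 2 times. The first scan held IL-17A replicate 1 and the 3 controls, and the second IL-17A replicates 2 and 3, so within a scan the groups can be compared only in the first. With the scan as a block in limma the estimate is IL-17A replicate 1 minus the mean of the controls, 1 array against 3, and it was 0.30 for DLL1 (SE 0.07), -0.19 for NOTCH4 (SE 0.06), -0.16 for NOTCH3 (SE 0.05), 0.17 for the brighter NOTCH2 probe (SE 0.06) and 0.25 for RBPJ (SE 0.08). With 1 treated array these are values without support of their own. None of the member probes then had an adjusted p under 0.05.

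A wider list of 86 genes, drawn up for the pathway, was grouped by role, and 72 of them were tested, each at its brightest probe. The list took in KYAT1, a kynurenine aminotransferase that is not a corepressor, and the counts include it. The whole list stayed close to the rest of the array. At an unadjusted p under 0.05, 13 genes were higher and 10 lower, or 31.9% together, while 16.9% of the 14747 tested genes were higher and 14.8% lower. An adjusted p under 0.05 was reached by 5 genes, or 6.94%, against 7.85% of all genes. A fold change of at least 1.5 with an unadjusted p under 0.05 was reached by 1 gene, NEURL1, against 1.92% of all genes. The 63 genes that are not members gave 10 higher and 8 lower, or 28.6%, with a median log2 fold change of -0.03.

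In the sentences that follow, a gene is said to rise or fall where its unadjusted p was under 0.05, and the adjusted p is given. The counts for each role stand beside 16.9% of all tested genes higher and 14.8% lower, and each role holds few genes. Among the remaining ligands, DLL3 fell by 0.18 on the log2 scale (limma adjusted p = 0.0871), JAG2 differed by 0.10 without passing, and DLL4 was not measured above background in at least 3 arrays. Of 6 further ligand-like proteins 3 were tested. DLK2, a non-canonical ligand of the Delta-like family, rose by 0.37 on the log2 scale (limma adjusted p = 0.131), while DLK1 (-0.21) and MFAP5 (-0.37) did not pass.

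In the nuclear complex 7 of 8 genes were tested, with 2 higher and 1 lower. SNW1, a cofactor of the RBPJ complex, rose by 0.10 like RBPJ itself (limma adjusted p = 0.138), and EP300, the acetyltransferase that the activated complex recruits, fell by 0.26 (limma adjusted p = 0.0912). Of 12 tested genes listed as corepressors, 2 were higher and 1 lower. Corepressors hold RBPJ targets silent without Notch. KYAT1 (-0.04 without passing), a metabolic enzyme, was listed among them in error. NCOR1 read 8.97, 8.88 and 8.94 with IL-17A and 8.69, 8.67 and 8.71 without, apart in all samples, with a log2 fold change of 0.24 (limma adjusted p = 0.0367), and its 2 dimmer probes gave 0.15 and 0.23. TLE3, a Groucho-family corepressor, rose by 0.17 (limma adjusted p = 0.0495). CTBP2 fell by 0.43 at its brightest probe (limma adjusted p = 0.0623), but its other tested probe gave -0.01.

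Of 11 tested genes in the target list, 3 were higher and 0 lower at the brightest probe, with a median log2 fold change of 0.02. The list took in HES-family genes by name, HES6 among them, and whether each is a Notch target was not tested. HES6 gave 0.02 there, but a dimmer HES6 probe was lower by 0.19 at an unadjusted p under 0.05 (limma adjusted p = 0.0602). Its other tested probes gave 0.08 and -0.10 without passing. HES7, an oscillating repressor of the HES family, read 8.38, 8.47 and 8.38 with IL-17A and 8.04, 8.08 and 8.16 without. Its groups did not overlap and its log2 fold change was 0.32 (limma adjusted p = 0.0335). CR2, the complement receptor of mature B cells, rose by 0.27 (limma adjusted p = 0.119) and HEY2 by 0.12 (limma adjusted p = 0.141). HES4 had the largest estimate of the list, 0.81, but its replicates were wide apart, at 3.36, 3.52 and 4.58 against 2.62, 2.80 and 3.59, and it did not pass (SE 0.41; limma adjusted p = 0.234). MYC, a Notch target in several leukaemias, gave 0.04 without passing, and HES5 and HEYL were not measured above background.

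The proteases that cut the receptors had 0 higher and 3 lower among 8 tested genes at the brightest probe. All 3 belong to gamma-secretase. PSENEN fell by 0.26 (limma adjusted p = 0.0659), NCSTN by 0.22 (limma adjusted p = 0.0927) and PSEN2, a catalytic subunit, by 0.12 (limma adjusted p = 0.139) on the log2 scale. None of them had an adjusted p under 0.05, and the median of the 8 genes was 0.04. ADAM10, an ADAM protease, gave 0.10 at its brightest probe without passing. Its dimmer probe was higher by 0.19 at an unadjusted p under 0.05 (limma adjusted p = 0.0657), so the count of 0 higher depends on the probe. Of the 6 enzymes that add sugars to the receptors, EOGT fell by 0.26 (limma adjusted p = 0.0977). POFUT1, which places O-fucose on Notch, gave -0.39 without passing (limma adjusted p = 0.241), with IL-17A replicate 1 at 5.65 and the other treated samples at 6.46 and 6.11. Its second probe gave 0.04. POGLUT1, an O-glucosyltransferase of Notch, gave 0.04 without passing.

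Receptor and ligand trafficking and turnover had 3 genes higher and 1 lower among 17 tested at the brightest probe. Dimmer probes of CDK8 (0.19, limma adjusted p = 0.0895) and SKP1 (-0.21, limma adjusted p = 0.13) also had an unadjusted p under 0.05. The brightest probes of these genes gave 0.09 and -0.07 without passing. NEURL1, an E3 ligase that acts on Notch ligands, read 7.06, 7.74 and 7.51 with IL-17A and 8.21, 8.26 and 7.76 in the controls. The groups did not overlap, though IL-17A replicate 2 and control replicate 3 almost met. The log2 fold change was -0.64 (SE 0.22; limma adjusted p = 0.115). It no longer passed both thresholds without IL-17A replicate 1, without IL-17A replicate 3, without control replicate 1 or without control replicate 2, nor with normexp or the methods' t-test, and with the scan as a block the value was -1.01. Its relative NEURL1B rose by 0.40 at its brighter probe (limma adjusted p = 0.122) and gave -0.18 at the dimmer one. NUMBL, a relative of the Notch antagonist NUMB, rose by 0.23 (limma adjusted p = 0.129), and DTX3L, a Deltex-family ligase, by 0.17 (limma adjusted p = 0.101).

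**Figure D4:**
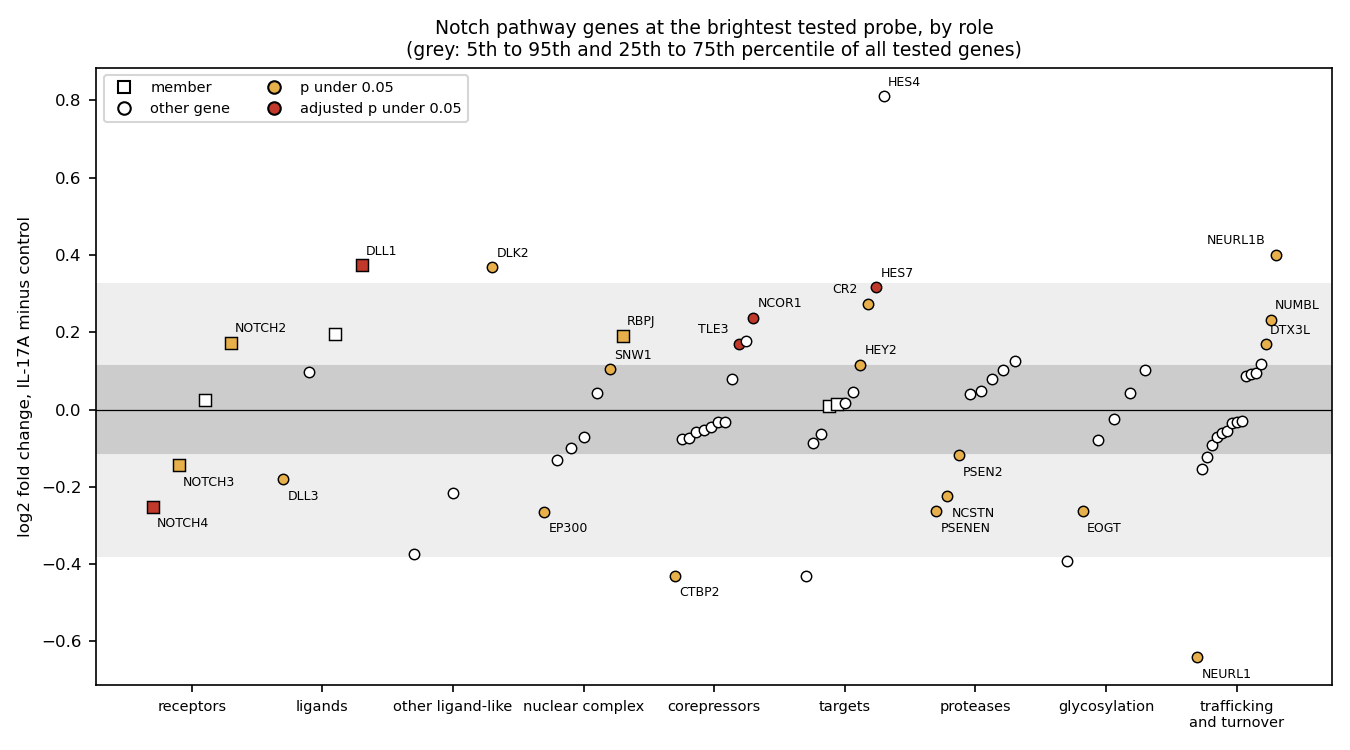
Log2 fold change (IL-17A minus control) of the 72 tested genes of the pathway list by role, each at its brightest probe. Squares are members and circles other genes, colour marks an unadjusted or an adjusted p under 0.05 in limma, and the grey bands span the 25th to 75th and the 5th to 95th percentile of all tested genes. Most points lie between the outer limits of -0.38 and 0.32, with HES4 at 0.81 and NEURL1 at -0.64 farthest out.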

How the data were processed

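Total RNA from 6 samples of SU-DHL-2 cells was amplified, labeled with Cy3 and hybridised to Agilent 1-colour arrays. Per the file headers, the deposited intensity values came from Agilent Feature Extraction 11.0.1.1, background-subtracted within each array. The authors also deposited a table of log2 normalized values, used here as an alternative, and the deposited detection and control flags were used as given. Of 43118 non-control spots, non-uniform ones were left out (61 values), and the signal was floored at 1 and log2-transformed. The spots of each probe were then averaged, and the resulting 34127 probes were quantile normalized. Probes detected on at least 3 of 6 arrays were tested (23945, 70.2%) with limma 3.58.1 in R 4.3.3, IL-17A against control, with Benjamini-Hochberg adjustment over all of them. Detected probes numbered 23570 to 24077 per array and none was saturated. The small number of arrays limits the precision. Genes were named through RefSeq accessions, and the brightest tested probe stood for a gene. The design was annotated on another genome build (hg19) than the promoters, so no probe position is given. Members and lists were chosen with earlier results of these data known. Named genes were the members, genes past both thresholds and the 3 of lowest p in each list. HES4, HES6, MYC, JAG2, NUMBL, ADAM10, KYAT1, CDK8 and SKP1 were added after their values were seen. Alternatives covered normalization, background correction, detection filter, floor, variance model, test, fold threshold, replicate or scan as a block, and leaving out each array. The methods' t-test was one of them.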

Additional observations from a re-analysis of the deposited data

How the results depend on the processing

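All 11 member probes stayed below the fold threshold under every alternative, and DLL1, NOTCH2, NOTCH3, NOTCH4, RBPJ and JAG1 kept their direction in 17 alternatives. Over the member values, 171 kept direction and side of the threshold, 8 lost and 1 gained an unadjusted p under 0.05, and 7 reversed. Reversals came from leaving out 1 array, with log2 fold changes of -0.0282 to 0.0688 for DTX1, -0.0591 to 0.0929 for HEY1 and -0.29 to 0.22 for the single-spot NOTCH1 probe. Member probes with an adjusted p under 0.05 (2) became 0 without normalization, with the replicate block and with the scan as a block, 1 by the methods' t-test (NOTCH3 at 0.0319, with DLL1 and NOTCH4 lost), 3 with normexp, 5 with a variance trend, and 0 to 0 without 1 array. Without a filter on detection the count of 2 was DLL1 and NOTCH3. Pathway genes past both thresholds (1) became 0 with normexp, the t-test or a fold change of 2, 2 with the replicate block (NEURL1 and HES4), 2 with the scan as a block (NEURL1 at -1.01 and POFUT1 at -0.81), and 0 to 2 without 1 array (2 when control 3 was left out, 1 when treated sample 2 was, and 0 for each other array). Pathway genes with an adjusted p under 0.05 (5) became 0 without normalization or with either block, 8 for means over a gene's probes, 10 with a variance trend, and 0 to 2 without 1 array (2 when control 3 was left out, 0 for each other array). The 522 probes past both thresholds became 15 with normexp, 299 when detected on all 6 arrays, 978 without a filter, 82 at a fold change of 2, and 409 to 658 without 1 array. Their share of higher calls was 46.2%, and 26.2% with 75th percentile scaling, 30.4% without normalization, 26.7% with normexp and 33.8% with the scan as a block. Over all probes, those with an adjusted p under 0.05 (1818) became 1248 by the methods' t-test, 46 without normalization, 4 with the replicate block, 48 with the scan as a block, and 69, 3 and 4 without treated samples 1, 2 and 3 and 2, 8 and 983 without controls 1, 2 and 3. The labels do not say whether same-numbered samples were paired. Their deviations from the group means had correlations of -0.0871 to -0.0022 over probes, which cannot settle it with 3 samples per group. Signals near background, as for HES1, limit what can be said of low transcripts. The causes were not tested.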
